A study of Mus musculus with 6 samples.

Results

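Interferon-stimulated genes were followed in CD4+ T cells that had been re-activated in vivo in the presence of checkpoint-blocking antibodies. The list held 41 genes that are well known to be induced by interferons, chosen by name, and all 41 reached the minimum of 10 reads summed over the samples. They were 41 of the 11877 genes that reached this minimum, from a table of 47643 genes. All cells came from Tg4 Tiger Nr4a3-Tocky mice, whose T cells carry a transgenic receptor for myelin basic protein (MBP) peptide and report *Il10* with GFP. In these mice *Nr4a3* regulatory sequences drive a fluorescent Timer protein that is blue when new and red once matured. Every mouse received 80 μg of peptide, then 24 h later 800 μg of an isotype pool (rat IgG1 and rat IgG2a), anti-PD1 or anti-Lag3, and 30 min after the antibody a second peptide dose of 8 μg. Spleens were taken 4 h after the second dose, and CD4+ T cells positive for both Timer forms were sorted, a gate for cells whose receptor had signalled. Each of the 3 groups had 2 samples. Per the methods of the study, a further batch had been left out as an outlier, and it was not analysed here. The labels give neither the age of the mice nor how many mice a sample came from. The methods of the study describe separate staining of the cells of each replicate mouse before sorting in parallel. The p-values measure the spread between these samples.

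Interferons are secreted proteins that bind receptors made of paired chains, IFNAR1 with IFNAR2 for the type I interferons and IFNGR1 with IFNGR2 for interferon-γ. The receptors carry the kinases JAK1, TYK2 and JAK2, which phosphorylate transcription factors of the STAT family. A complex that contains STAT2 and IRF9 binds a DNA element called the interferon-stimulated response element (ISRE), and a different element, the gamma-activated site (GAS), marks many genes that respond to interferon-γ. The induced genes sense foreign nucleic acids, block viral replication and attack intracellular microbes, and some of them shut the pathway off again. In T cells type I interferon and interferon-γ both shape activation, and T cells are themselves a source of interferon-γ.

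Total counts ran from 2107715 to 2648920 per sample, and 3 reads were worth 1.11 to 1.44 CPM, the read count after correction for library size. Summed CPM of 10 T cell markers lay between 2061 and 2278 in every sample. The interferon-stimulated genes together took between 0.229% and 0.292% of the reads. In isotype they took 0.229% and 0.243%, in anti-PD1 0.250% and 0.270%, and in anti-Lag3 0.292% and 0.248%. By this share the isotype samples were the lowest of the 6, and anti-Lag3 sample 1 was the highest. In summed CPM the genes were at 2384 and 2451 in isotype, 2521 and 2666 in anti-PD1, and 2858 and 2438 in anti-Lag3. By that measure anti-Lag3 sample 2 lay between the isotype samples. A lower level in such bulk samples can reflect fewer cells of a type or less RNA per cell, and these cannot be told apart.

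The interferon-stimulated genes were expressed over a wide range, from a mean of 1.04 CPM for *Oas2* to 419 CPM for *Slfn2*. Their median was 28.2 CPM, against 16.4 CPM over all tested genes. 26 of the 41 had a mean of at least 20 CPM and 15 lay below it. 40 had at least 1 read in every sample, with *Oas2* at 0 reads in isotype sample 1, and 11 had fewer than 10 reads in some sample. Because each transcript gives reads at its 3′ end, CPM were not divided by gene length.

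The 5 most abundant genes were *Slfn2*, *Ly6e*, *Trim30a*, *Isg15* and *Ifi47*. *Slfn2* encodes a schlafen protein that keeps T cells quiescent, and it was at 416 and 368 CPM in isotype, 465 and 395 in anti-PD1, and 458 and 412 in anti-Lag3. *Ly6e*, which encodes a surface protein anchored by a lipid, was at 327 and 330 CPM in isotype, 376 and 364 in anti-PD1, and 381 and 308 in anti-Lag3. *Isg15* encodes a ubiquitin-like protein that is attached to other proteins. It was at 171 and 164 CPM in isotype, 127 and 202 in anti-PD1, and 197 and 131 in anti-Lag3, so the gap between the 2 anti-PD1 samples was the widest between any 2 samples. The oligoadenylate synthetase *Oas1a*, *Oas2* and *Oasl1* transcripts, *Mx1* and *Ifit3* had the lowest means, between 1.04 and 3.05 CPM.

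**Figure D1:**
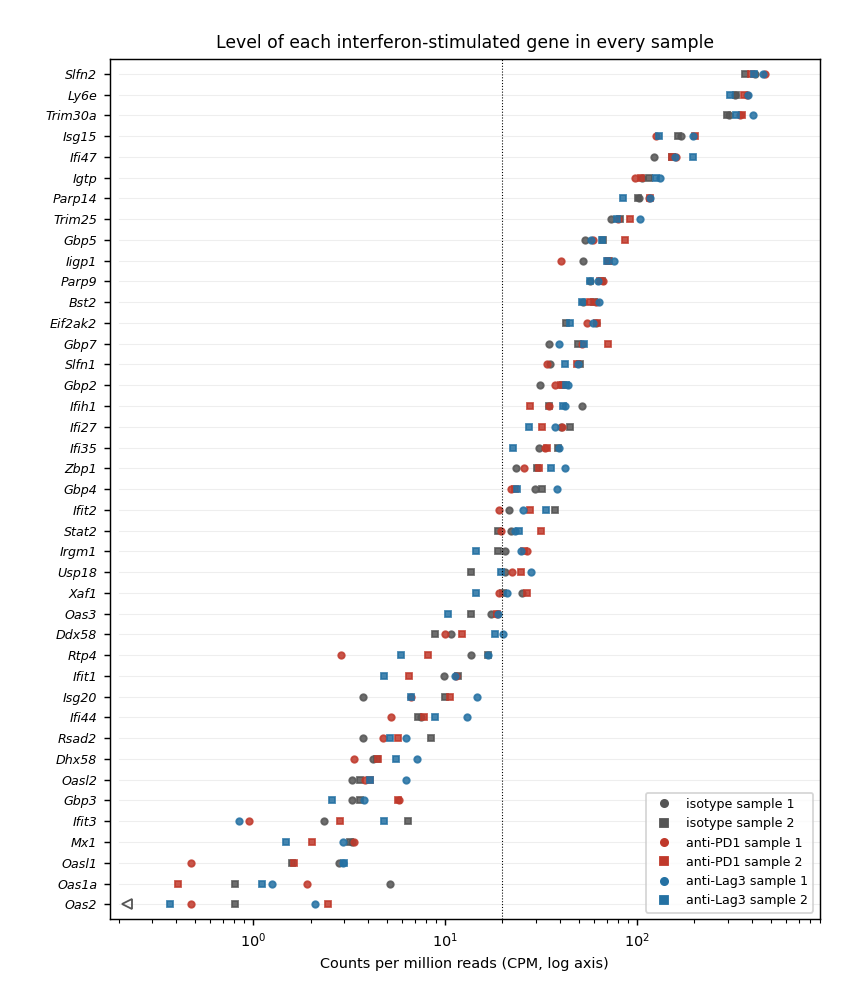
Level of each of the 41 interferon-stimulated genes, ordered by mean, in each of the 6 samples (CPM on a log axis; colour, group; circle or square, sample 1 or 2; dotted line, 20 CPM; open triangle, the sample with 0 reads of *Oas2*). The genes run from 1.04 to 419 CPM, and colours are mixed along most rows.

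Promoter sequences of RefSeq (GRCm38.p6, 250 bases before to 50 bases after each start) were at hand for 29 of the 41 genes. A core of the ISRE, written here as GAAANNGAA or TTCNNTTTC on the opposite strand, was found in 20 of these 29 (69.0%), and in 9.76% of the 27025 genes with a promoter. A core of the GAS, TTCNNNGAA, which reads the same on both strands, was found in 9 of 29 (31.0%), and in 9.55% of all genes with a promoter. 6 genes held both, namely *Bst2*, *Eif2ak2*, *Gbp5*, *Gbp7*, *Igtp* and *Oas1a*. The 20 genes held 34 matches to the ISRE core, of which 29 began before the start, and 26 of those lay within 150 bases of it. The matches were in all 4 matched nucleic acid sensing genes, in 6 of 7 GTPase genes and in 5 of 7 antiviral effectors, and in neither *Slfn1* nor *Slfn2*. A match describes the letters in this window and is not a measured binding site.

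The promoters of 3 genes are shown because they stood among the 5 with the smallest p between anti-PD1 and isotype (5′ to 3′ on the strand of the gene, with the ISRE and GAS cores in capitals). They are those of *Gbp7*, a guanylate-binding protein gene (plus strand), *Ifih1*, which encodes the RNA sensor MDA5 (minus strand), and *Trim30a*, a tripartite motif gene (minus strand, the upstream start).
Gbp7, chr3:142530086-142530385: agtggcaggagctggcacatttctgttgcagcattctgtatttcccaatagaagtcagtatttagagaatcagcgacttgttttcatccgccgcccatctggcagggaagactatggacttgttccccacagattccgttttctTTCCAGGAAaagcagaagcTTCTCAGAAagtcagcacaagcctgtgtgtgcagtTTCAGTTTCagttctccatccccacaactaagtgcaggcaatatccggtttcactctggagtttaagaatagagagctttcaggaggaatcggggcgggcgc
Ifih1, chr2:62646206-62646505: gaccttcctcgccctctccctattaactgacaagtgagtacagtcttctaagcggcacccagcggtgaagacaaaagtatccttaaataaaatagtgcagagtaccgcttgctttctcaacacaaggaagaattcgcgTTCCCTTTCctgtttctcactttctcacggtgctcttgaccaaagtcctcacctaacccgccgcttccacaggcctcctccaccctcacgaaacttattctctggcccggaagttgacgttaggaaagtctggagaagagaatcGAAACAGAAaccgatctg
Trim30a, chr7:104465144-104465443: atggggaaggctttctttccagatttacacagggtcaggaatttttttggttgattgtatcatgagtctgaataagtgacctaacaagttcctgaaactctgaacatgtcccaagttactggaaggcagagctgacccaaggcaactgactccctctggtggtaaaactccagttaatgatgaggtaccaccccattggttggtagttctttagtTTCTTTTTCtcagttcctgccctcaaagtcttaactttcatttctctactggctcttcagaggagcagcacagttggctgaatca

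In *Gbp7* both GAS cores, which begin 106 and 87 bases before the start, lay upstream of the ISRE core, which begins 52 bases before it. *Ifih1* had an ISRE core 112 bases before the start and another within the transcribed part, and *Trim30a* had its core 35 bases before the start. The GTPase genes show how the element recurs in a family. A stretch around an ISRE core of each is given here, with that core in capitals. *Gbp3* and *Irgm1* each hold another core that overlaps the marked core and is left partly in lower case.
Gbp2: ctcttttagtTTCACTTTCactgtcttaag
Gbp3: aggacacagtTTCAGTTTCtatttcccaga
Gbp5: cttgtgtagtTTCAATTTCagtttagagaa
Gbp7: tgtgtgcagtTTCAGTTTCagttctccatc
Igtp: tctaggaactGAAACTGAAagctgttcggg
Irgm1: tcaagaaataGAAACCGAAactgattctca

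The 4 *Gbp* genes carried the core on the opposite strand, and *Igtp* and *Irgm1* carried it in the direction of transcription. *Gbp5*, *Gbp7*, *Gbp3* and *Gbp2* are neighbours on chromosome 3, within 144 kb (chr3:142493978-142638008, GRCm38). In all, 18 of the 41 genes lie in 7 such groups with gaps under 500 kb, including *Ifit2*, *Ifit3* and *Ifit1* on chromosome 19 and *Oas2*, *Oas3* and *Oas1a* on chromosome 5. Where such neighbours are similar in sequence, reads near their 3′ ends could be shared or dropped by the counting. Their similarity was not measured.

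To ask whether blockade changed the interferon program, each blocking antibody was compared with the isotype pool, and the 2 antibodies were compared with each other. None of the 41 genes passed an adjusted p of 0.05 in any of the 3 comparisons (edgeR's quasi-likelihood test, Benjamini-Hochberg over all 11877 genes). Over all tested genes 0.901% passed between anti-PD1 and isotype (107 genes), 0.0421% between anti-Lag3 and isotype (5 genes) and 0.303% between anti-PD1 and anti-Lag3 (36 genes). The smallest adjusted p of an interferon-stimulated gene was 0.227 for anti-PD1 against isotype (*Rtp4*), 0.69 for anti-Lag3 against isotype and 0.702 for anti-PD1 against anti-Lag3. An unadjusted p under 0.05 was reached by 2, 4 and 2 genes with edgeR, by 1, 2 and 0 with DESeq2 and by 3, 4 and 2 with limma-voom. Over all tested genes the edgeR share was 8.12%, 5.96% and 6.53%.

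The median log2 fold change of the 41 genes was 0.08 for anti-PD1 against isotype, 0.04 for anti-Lag3 against isotype and -0.07 for anti-PD1 against anti-Lag3, where that of all tested genes was 0.00 in each. With each sample left out in turn the first ran from -0.03 (without anti-PD1 sample 2) to 0.15 (without anti-PD1 sample 1), and it was -0.01 without isotype sample 1. 23 genes had an estimate above 0 and 18 below it with anti-PD1, and 24 and 17 with anti-Lag3, both against the same isotype samples (above 0 for 50.6% and 50.1% of all tested genes). Between anti-PD1 and isotype the samples did not overlap for 10 genes that were higher and 4 that were lower (19.2% and 18.2% of all tested genes). Between anti-Lag3 and isotype these were 11 and 2 genes (17.3% and 17.3%), and between anti-PD1 and anti-Lag3 3 and 9 genes (18.2% and 17.7%).

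How large a change the data leave possible was read from the 95% intervals. The interval lay within 1 on the log2 scale on either side of 0, so that a 2-fold change in either direction fell outside it, for 25, 25 and 23 of the 41 genes in the 3 comparisons (48.8%, 50.7% and 50.2% of all tested genes). Among the 26 genes with at least 20 CPM it did so for 23, 24 and 23, and among the 15 below 20 CPM for 2, 1 and 0. It lay within 0.5 for 9, 8 and 7 of the 41. For abundant genes such as *Slfn2* (-0.09 to 0.35), *Ly6e* (-0.05 to 0.40), *Isg15* (-0.35 to 0.31) and *Bst2* (-0.31 to 0.47) the interval for anti-PD1 against isotype was thus narrow. For *Oas2*, with 15 reads in all, it ran from -1.58 to 4.98, and a difference of several fold was not detectable at this depth.

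**Figure D2:**
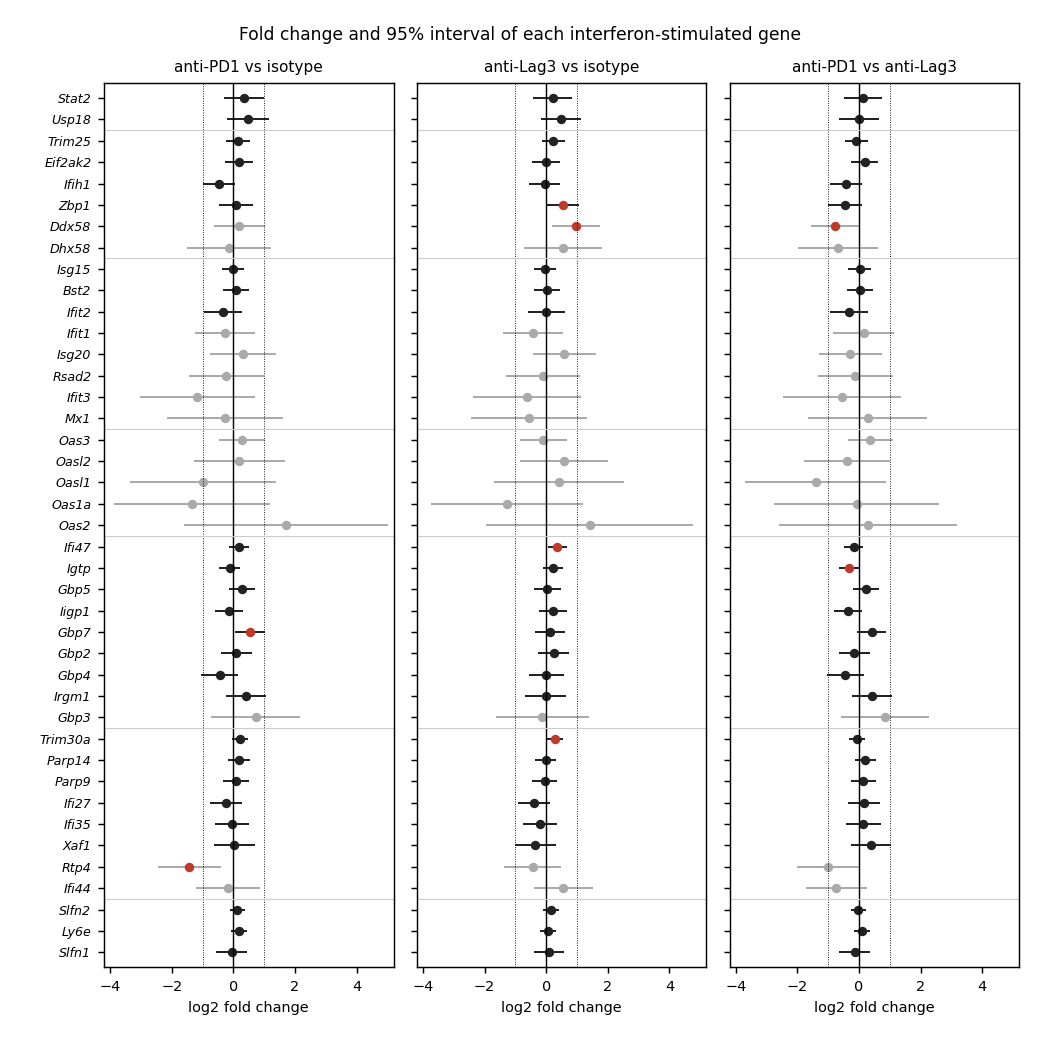
Log2 fold change (points) and 95% interval (lines) of the 41 genes in the 3 comparisons, from edgeR's fit of all 6 samples (black, mean of at least 20 CPM; grey, below it; red point, unadjusted p under 0.05; dotted lines, 1 on either side of 0). Most black intervals stay between the dotted lines, grey ones often reach beyond, and no gene passed after adjustment.

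Within the pathway's own parts on the list, *Stat2* and *Usp18* were considered first. *Stat2* encodes a subunit of the factor that binds the ISRE, and *Usp18* encodes an enzyme that removes ISG15 and blocks signalling at IFNAR2. *Usp18* was at 20.7 and 13.7 CPM in isotype, 22.5 and 24.9 in anti-PD1, and 28.3 and 19.7 in anti-Lag3. Both anti-PD1 samples thus lay above both isotype samples, whereas anti-Lag3 overlapped with isotype (log2 fold change 0.48, SE 0.32, adjusted p = 0.787 for anti-PD1 against isotype). *Stat2* had a log2 fold change of 0.34 with anti-PD1 and 0.22 with anti-Lag3, with adjusted p = 0.877 and 0.966.

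The 6 nucleic acid sensing genes encode the RNA helicases RIG-I (*Ddx58*), MDA5 (*Ifih1*) and LGP2 (*Dhx58*), the kinase PKR (*Eif2ak2*), the sensor ZBP1 and the RIG-I ubiquitin ligase TRIM25. Their median log2 fold change was 0.11 with anti-PD1 and 0.38 with anti-Lag3 against isotype. *Ddx58* was at 10.8 and 8.86 CPM in isotype, 10.1 and 12.3 in anti-PD1, and 20.2 and 18.2 in anti-Lag3. Both anti-Lag3 samples were above the other 4 (log2 fold change against isotype 0.97, SE 0.37, 95% interval 0.22 to 1.71, adjusted p = 0.69). *Zbp1* showed the same order, with 23.6 and 30.2 CPM in isotype, 25.9 and 31.1 in anti-PD1, and 42.2 and 36.03 in anti-Lag3 (0.53, SE 0.25, adjusted p = 0.81). *Ifih1* was at 51.8 and 35.02 CPM in isotype, 34.98 and 27.8 in anti-PD1, and 42.2 and 41.6 in anti-Lag3. For *Ifih1* the anti-PD1 samples were the lowest of all, by a narrow margin to isotype sample 2 (-0.47, SE 0.24, adjusted p = 0.656). The estimate was -0.16 without isotype sample 1, -0.73 without isotype sample 2 and -0.31 without anti-PD1 sample 2. *Dhx58*, with 70 reads in all, had both anti-Lag3 samples above the other 4 as well, at a log2 fold change of 0.54 with an interval of -0.70 to 1.79.

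Of the 8 antiviral effectors none reached an unadjusted p of 0.05 in any comparison. They comprise *Isg15*, the exonuclease gene *Isg20*, *Ifit1*, *Ifit2* and *Ifit3*, whose products bind viral RNA, viperin (*Rsad2*), the GTPase gene *Mx1* and tetherin (*Bst2*). 6 of the 8 had an estimate below 0 with anti-PD1 (median -0.25) and 5 of 8 with anti-Lag3 (median -0.07), and the groups overlapped for all 8 between anti-PD1 and isotype. 5 of them had a mean below 10 CPM. *Ifit2*, the third most abundant, was at 21.7 and 37.4 CPM in isotype, 19.2 and 27.8 in anti-PD1, and 25.7 and 33.8 in anti-Lag3. Its replicates differed more than its groups.

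The oligoadenylate synthetases make a short nucleotide messenger that activates the RNA-degrading enzyme RNase L, although not every member of the family has this activity. Only *Oas3* was above 10 CPM, with 17.4 and 13.7 CPM in isotype, 18.7 and 18.8 in anti-PD1, and 19.0 and 10.4 in anti-Lag3. The anti-PD1 samples stood above isotype (0.27, SE 0.35, adjusted p = 0.945), and anti-Lag3 spanned the whole range. The other 4 had 15 to 60 reads over the 6 samples, and their log2 fold changes ran from -1.34 to 1.70 with anti-PD1, all with intervals wider than 1 on both sides of 0.

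The 9 interferon-inducible GTPases take part in the defence against intracellular microbes. They are the guanylate-binding protein genes *Gbp2*, *Gbp3*, *Gbp4*, *Gbp5* and *Gbp7* and the immunity-related GTPase genes *Igtp*, *Irgm1*, *Iigp1* and *Ifi47*. Their median log2 fold change was 0.19 with anti-PD1 and 0.13 with anti-Lag3. *Gbp7* was at 34.9 and 49.5 CPM in isotype, 51.8 and 71.2 in anti-PD1, and 39.2 and 53.1 in anti-Lag3. Both anti-PD1 samples lay above both isotype samples, and anti-Lag3 overlapped with each group (0.54, SE 0.22, 95% interval 0.09 to 0.99, adjusted p = 0.454). *Gbp4* had the opposite order, with 29.7 and 32.2 CPM in isotype, 22.04 and 23.3 in anti-PD1, and 38.4 and 23.8 in anti-Lag3 (-0.45, SE 0.28, adjusted p = 0.749). It overlaps *Gbp8* and *Gbp9* on the same strand of chromosome 5.

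*Gbp5*, next to *Gbp7* on chromosome 3, was at 53.7 and 66.8 CPM in isotype, 59.4 and 86.7 in anti-PD1, and 58.2 and 66.1 in anti-Lag3. Its higher anti-PD1 mean came from anti-PD1 sample 2 (0.28, SE 0.19, adjusted p = 0.802), without which the estimate was -0.03. *Irgm1* was at 20.7 and 18.9 CPM in isotype, 26.8 and 25.8 in anti-PD1, and 24.9 and 14.5 in anti-Lag3, with close anti-PD1 samples above isotype (0.41, SE 0.31, adjusted p = 0.839). *Igtp* was at 107 and 116 CPM in isotype, 98.2 and 106 in anti-PD1, and 132 and 126 in anti-Lag3. Its order was anti-Lag3, isotype, anti-PD1 with no overlap, at a log2 fold change of -0.34 (SE 0.15, adjusted p = 0.702) for anti-PD1 against anti-Lag3. *Igtp* overlaps *Irgm2* on the same strand of chromosome 11.

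*Ifi47* was at 124 and 152 CPM in isotype, 162 and 154 in anti-PD1, and 159 and 197 in anti-Lag3. Both treated groups lay above isotype, with log2 fold changes of 0.19 (SE 0.14, adjusted p = 0.842) and 0.36 (SE 0.14, adjusted p = 0.69). *Iigp1* was at 52.3 and 72.1 CPM in isotype, 40.3 and 71.2 in anti-PD1, and 75.9 and 69.8 in anti-Lag3, and the groups overlapped throughout. *Gbp3*, with 58 reads in all, had both anti-PD1 samples above the other 4 (5.75 and 5.73 CPM against 2.6 to 3.8), but its interval of -0.69 to 2.12 against isotype covered no change. The GTPase genes thus differed among themselves in the order of the groups, and 3 of the 9 had estimates below 0 in each comparison with isotype.

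The remaining 8 induced genes include *Rtp4*, a receptor transporter gene, which had the smallest p of the list between anti-PD1 and isotype. *Rtp4* was at 13.7 and 16.9 CPM in isotype, 2.88 and 8.18 in anti-PD1, and 16.9 and 5.94 in anti-Lag3. Both anti-PD1 samples lay below both isotype samples, and the anti-Lag3 samples spread over most of the range (-1.43, SE 0.48, 95% interval -2.41 to -0.45, adjusted p = 0.227 for anti-PD1 against isotype). The estimate was -0.90 (adjusted p = 0.845) without anti-PD1 sample 1 and -2.40 (adjusted p = 0.162) without anti-PD1 sample 2. *Trim30a*, a restraint on Toll-like receptor signalling, was at 305 and 296 CPM in isotype, 347 and 354 in anti-PD1, and 404 and 331 in anti-Lag3. All 4 treated samples were above both isotype samples, by 0.22 (SE 0.11, adjusted p = 0.633) with anti-PD1 and 0.29 (SE 0.11, adjusted p = 0.69) with anti-Lag3.

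*Ifi27*, which encodes a small hydrophobic membrane protein, was at 40.5 and 45.1 CPM in isotype, 40.7 and 32.3 in anti-PD1, and 37.5 and 27.5 in anti-Lag3. Both anti-Lag3 samples were below isotype (-0.40, SE 0.24, adjusted p = 0.885). *Parp9* and *Parp14* encode ADP-ribosyltransferase family members that sit near each other on chromosome 16. Their log2 fold changes were 0.09 and 0.19 with anti-PD1 and -0.04 and -0.02 with anti-Lag3, with intervals within 1 in all cases. *Ifi35*, *Xaf1* and *Ifi44* had log2 fold changes between -0.17 and 0.03 with anti-PD1 and between -0.36 and 0.56 with anti-Lag3, with adjusted p = 0.937 as the smallest. The 3 lymphocyte genes *Ly6e*, *Slfn1* and *Slfn2* lay between -0.06 and 0.17 with anti-PD1 and between 0.07 and 0.15 with anti-Lag3, and their intervals all stayed within 1.

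Single samples also set the size of other estimates. For anti-PD1 against isotype, *Usp18* was 0.80 without isotype sample 1 and 0.20 without isotype sample 2. *Gbp7* was 0.32 without isotype sample 1, 0.82 without isotype sample 2 and 0.28 without anti-PD1 sample 2, and *Ifi47* was 0.05 and 0.35 without isotype samples 1 and 2. For anti-Lag3 against isotype, *Trim30a* was 0.14 and 0.44 and *Ifi27* was -0.65 and -0.18 without anti-Lag3 samples 1 and 2, and *Ifi47* was 0.23 without isotype sample 1 and 0.20 without anti-Lag3 sample 2.

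The samples of 1 group differed in the list as a whole. Each gene was expressed as its deviation from its own mean over the 6 samples (log2 CPM). The median deviation of the 41 genes was -0.08 and -0.03 in isotype, -0.09 and 0.05 in anti-PD1, and 0.20 and -0.09 in anti-Lag3. In anti-Lag3 sample 1, 35 of the 41 genes stood above their mean (85.4%, against 51.0% of all tested genes in that sample), and in anti-Lag3 sample 2 15 did (36.6%, against 52.1%). The counts in isotype were 12 and 19 (29.3% and 46.3%, against 50.45% and 51.4% of all tested genes). In anti-PD1 they were 18 and 25 (43.9% and 61.0%, against 50.5% and 52.3%). The share was thus lowest in isotype sample 1.

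Among the 26 genes with at least 20 CPM, 21 were higher in anti-Lag3 sample 1 than in sample 2 (80.8%), at a median log2 difference of 0.26. Over all 5433 genes of at least 20 CPM the share was 46.2% and the median difference -0.02. The same median difference between samples 1 and 2 was -0.13 in isotype and -0.11 in anti-PD1. In these groups 38.5% and 30.8% of the 26 genes were higher in sample 1, against 48.3% and 49.4% of the 5433 genes. All 6 nucleic acid sensing genes and all 8 of the remaining induced genes were higher in anti-Lag3 sample 1, as were 6 of the 9 GTPases. The gap within anti-Lag3 was therefore larger than the median differences between the groups for the same 26 genes, which were 0.09, 0.05 and 0.01. Without anti-Lag3 sample 2 the median for anti-Lag3 against isotype was 0.21, and for anti-PD1 against anti-Lag3 it moved from -0.07 to -0.21. Without anti-Lag3 sample 1 the latter was 0.09.

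**Figure D3:**
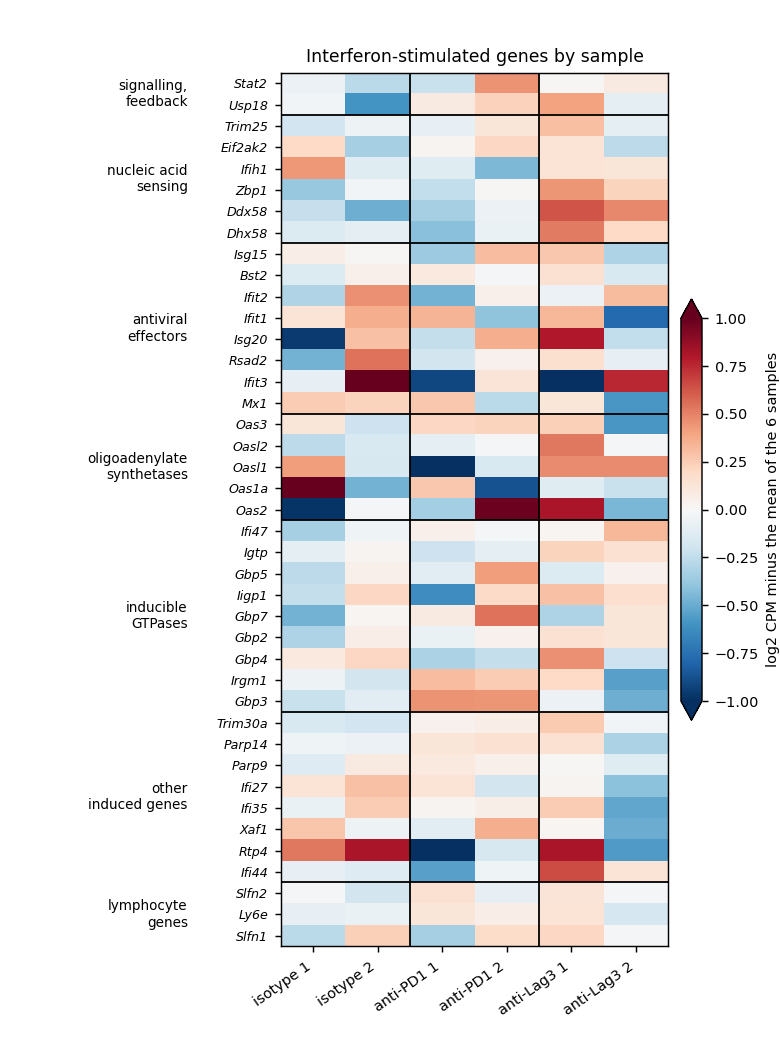
Deviation of each interferon-stimulated gene from its mean over the 6 samples (log2 CPM; red, above; blue, below; colours saturate at 1), with genes in rows by role and samples in columns. The column of anti-Lag3 sample 1 is mostly red (35 of 41 genes) and that of anti-Lag3 sample 2 mostly blue (15 of 41 above the mean). That of isotype sample 1 has 12 of 41 above the mean.

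14 of the 41 genes stand on the study's list of genes higher 4 h after a strong than after a weak peptide dose in the same mouse line, a list made from other samples. The copy used holds 336 genes, of which 332 were tested (2.8% of all tested genes). They are *Stat2*, *Oas2*, *Zbp1*, *Parp14*, *Trim30a* and all 9 GTPase genes. None of them passed the test here. Their median log2 fold change was 0.21 with anti-PD1 and 0.22 with anti-Lag3 against isotype, and that of the other 27 was -0.05 and 0.00. 11 of the 14 had an estimate above 0 with anti-PD1 and 10 with anti-Lag3, but the comparisons share the isotype samples. Between anti-PD1 and anti-Lag3 the medians were 0.03 and -0.07.

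The genes that make and carry the interferon signal were listed apart from the induced genes. Of 24 such genes, 18 reached 10 reads, and 1 of them, *Jak2*, passed the test, in both comparisons with anti-PD1. Of all tested genes 0.901% passed between anti-PD1 and isotype and 0.303% between anti-PD1 and anti-Lag3. *Jak2* encodes a kinase of the interferon-γ receptor and of several cytokine receptors. It was at 55.1 and 56.0 CPM in isotype, 112 and 106 in anti-PD1, and 68.3 and 54.6 in anti-Lag3. Both anti-PD1 samples were above the other 4, and *Jak2* rose by a log2 fold change of 0.97 (SE 0.18, adjusted p = 0.000705) against isotype and 0.83 (SE 0.17, adjusted p = 0.0127) against anti-Lag3. The call against isotype held with each sample left out in turn, whereas against anti-Lag3 it was lost without anti-PD1 sample 1 (adjusted p = 0.29), anti-PD1 sample 2 (0.219) or anti-Lag3 sample 2 (0.332). Anti-Lag3 against isotype had 0.14 (SE 0.18, adjusted p = 0.962). The other kinases showed no such pattern, with *Jak1* at 0.02 (SE 0.11) and *Tyk2* at -0.12 (SE 0.36) for anti-PD1 against isotype.

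Among ligands, *Ifng*, which encodes interferon-γ, was at 8.48 and 2.01 CPM in isotype, 7.19 and 10.6 in anti-PD1, and 7.17 and 12.3 in anti-Lag3. The groups overlapped, since isotype sample 1 was above a sample of each treated group (0.81, SE 0.55, adjusted p = 0.794 with anti-PD1). *Ifnb1*, *Ifna4*, *Ifnk*, *Ifnl2* and *Ifnl3* had 0 reads in every sample, which at 3 reads allows up to between 1.11 and 1.44 CPM in a sample, for counting error only. Of the receptor genes, *Ifnlr1* also had 0 reads. *Ifnar2* was at 23.6 and 22.9 CPM in isotype, 32.6 and 31.9 in anti-PD1, and 34.2 and 31.9 in anti-Lag3, with both treated groups above isotype (0.47, SE 0.26, adjusted p = 0.697 and 0.51, SE 0.26, adjusted p = 0.843).

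*Ifnar1* was lower in both anti-Lag3 samples, at 12.2 and 4.09 CPM, than in isotype, at 17.9 and 14.9, and was at 16.3 and 11.9 in anti-PD1 (-1.02, SE 0.42, adjusted p = 0.733 for anti-Lag3 against isotype). *Ifngr1* had both treated groups above isotype (0.52, SE 0.33 and 0.54, SE 0.33). *Ifngr2* and *Il10rb*, the latter shared with other cytokines, overlapped between anti-PD1 and isotype, with -0.29 (SE 0.84) and -0.03 (SE 0.44). No receptor gene passed in any comparison.

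The interferon regulatory factor genes *Irf1*, *Irf2* and *Irf9* had estimates below 0 with anti-PD1, and *Irf7* had one above 0. *Irf2*, which encodes an inhibitor of interferon-driven transcription, was at 85.3 and 89.0 CPM in isotype, 54.1 and 57.3 in anti-PD1, and 80.1 and 83.2 in anti-Lag3. Both anti-PD1 samples stood well below the other 4, but the adjusted p against isotype was 0.0623 (-0.64, SE 0.17), just above the threshold. *Irf9* had -0.39 (SE 0.20, adjusted p = 0.669) and *Irf1* -0.15 (SE 0.17, adjusted p = 0.912). *Irf7*, which amplifies type I interferon production, was at 14.6 and 13.7 CPM in isotype, 14.4 and 22.1 in anti-PD1, and 29.1 and 15.6 in anti-Lag3, so anti-Lag3 sample 1 stood out for it too.

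3 of the 4 inhibitor genes were higher in all 4 treated samples than in both isotype samples, without passing the test. Both comparisons rest on the same 2 isotype samples, and 19.2% and 17.3% of all tested genes were likewise apart and higher with anti-PD1 and with anti-Lag3. *Socs3*, a suppressor of cytokine signalling, was at 23.6 and 19.7 CPM in isotype, 33.1 and 49.5 in anti-PD1, and 44.7 and 29.7 in anti-Lag3 (0.94, SE 0.27, adjusted p = 0.0915 and 0.78, SE 0.27, adjusted p = 0.667). *Socs1*, which blocks the interferon receptor kinases, was at 37.7 and 39.9 CPM in isotype, 61.8 and 58.5 in anti-PD1, and 59.9 and 53.5 in anti-Lag3 (0.63, SE 0.20, adjusted p = 0.181 and 0.54, SE 0.20, adjusted p = 0.69). The phosphatase gene *Ptpn2* was at 104 and 95.8 CPM in isotype, 136 and 154 in anti-PD1, and 120 and 134 in anti-Lag3 (0.54, SE 0.15, adjusted p = 0.0623 and 0.35, SE 0.15, adjusted p = 0.753). The fourth, *Pias1*, had 0.01 (SE 0.33) and 0.26 (SE 0.32). When only the 4 samples of anti-PD1 and isotype were fitted, *Ptpn2*, *Socs3* and *Irf2* passed together with *Jak2*, 4 genes in place of 1. With the replicate number as a block *Ptpn2* passed beside *Jak2*, 2 genes. Calls over all tested genes rose in these settings too, from 107 to 175 with the 4 samples alone and to 144 with the block.

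**Figure D4:**
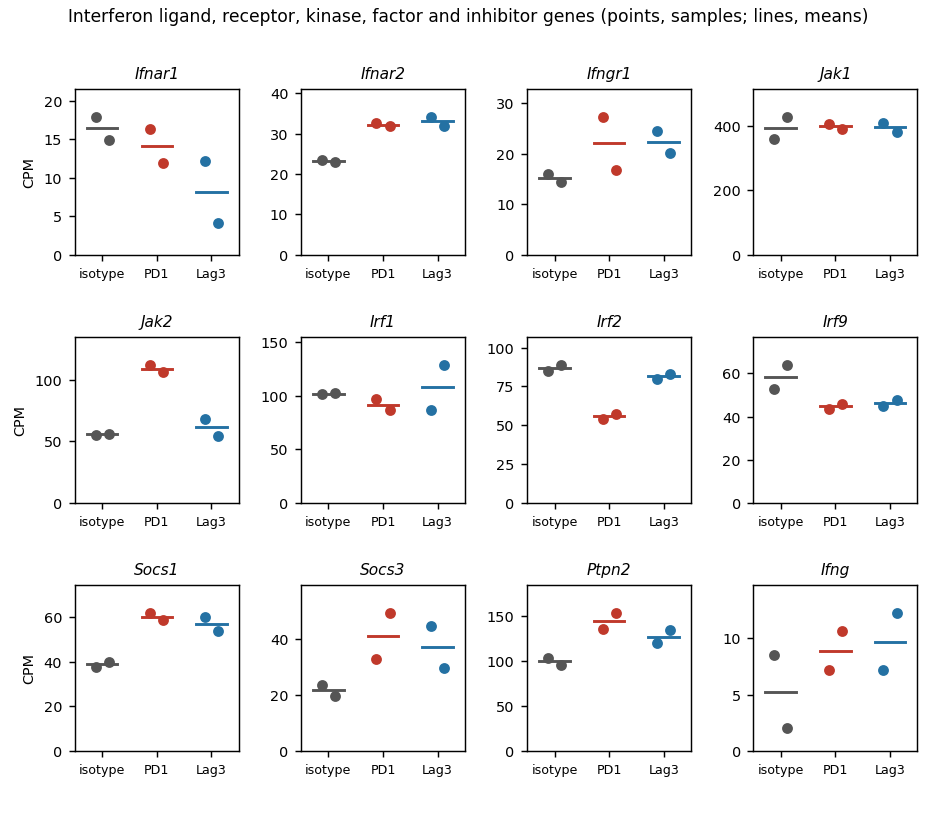
CPM of 12 interferon pathway genes in each sample (points) with the mean of each group (lines; each vertical axis starts at 0). *Jak2* is at 112 and 106 CPM in anti-PD1 and at 54.6 to 68.3 in the other samples, *Irf2* is lowest in anti-PD1, and *Socs1*, *Socs3* and *Ptpn2* are lowest in isotype.

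A further list of 68 interferon-responsive genes, of which 58 were tested, held 1 gene that passed between anti-PD1 and isotype, none between anti-Lag3 and isotype, and 1 between anti-PD1 and anti-Lag3. Of all tested genes 0.901%, 0.0421% and 0.303% passed in these comparisons. In the comparison without a call, 5 of the 58 had an unadjusted p under 0.05 with edgeR (5.96% of all tested genes did). DESeq2 and limma-voom called none there either. Between anti-PD1 and isotype edgeR gave such a p to 11 lower and 2 higher genes (8.12% of all tested genes in both directions). Between anti-PD1 and anti-Lag3 these were 9 lower and 1 higher (6.53%). Both anti-PD1 samples lay below both isotype samples for 21 of the 58 and above them for 6 (18.2% and 19.2% of all tested genes). Both genes that passed fell in anti-PD1, and both belong to the PYHIN family, whose proteins bind DNA or act in the nucleus. *Ifi203* was at 159 and 144 CPM in isotype, 104 and 97.7 in anti-PD1, and 145 and 119 in anti-Lag3 (-0.59, SE 0.15, adjusted p = 0.0305 against isotype). It did not pass with DESeq2 (adjusted p = 0.136) or once isotype sample 1 (0.253), isotype sample 2 (0.0976), anti-PD1 sample 1 (0.187) or anti-PD1 sample 2 (0.381) was left out. With the replicate number as a block *Sp110* passed beside it, 2 genes, while calls over all tested genes rose from 107 to 144. *Ifi213* was at 9.90 and 9.26 CPM in isotype, 3.35 and 2.86 in anti-PD1, and 15.6 and 12.6 in anti-Lag3 (-2.17, SE 0.50, adjusted p = 0.0377 against anti-Lag3). It did not pass with limma-voom (adjusted p = 0.17) or once anti-PD1 sample 1 (0.303), anti-PD1 sample 2 (0.515), anti-Lag3 sample 1 (0.156) or anti-Lag3 sample 2 (0.0704) was left out.

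The 8 PYHIN genes of the list were then set side by side, a grouping made after these values were seen, so that no test is given. They lie within 474 kb on chromosome 1 (chr1:173468485-173942672, GRCm38), and *Ifi203* and *Mndal* overlap on the same strand. For all 8 both anti-PD1 samples were below both isotype samples, where 18.2% of all tested genes were, and the log2 fold changes ran from -0.27 for *Mndal* to -1.61 for *Ifi213*. *Ifi206* was at 26.9 and 24.6 CPM in isotype, 8.15 and 13.5 in anti-PD1, and 33.3 and 17.5 in anti-Lag3 (-1.23, SE 0.35, adjusted p = 0.0899). *Ifi208* was at 11.3 and 15.3 CPM in isotype, 4.31 and 4.50 in anti-PD1, and 16.9 and 13 in anti-Lag3 (-1.59, SE 0.46, adjusted p = 0.0915). *Ifi209* was at 35.3 and 31.0 CPM in isotype, 18.7 and 18.4 in anti-PD1, and 30.8 and 46.8 in anti-Lag3 (-0.83, SE 0.28, adjusted p = 0.212). The PYHIN genes were thus low in both anti-PD1 samples (median log2 fold change -1.02 against isotype). With anti-Lag3 the median was -0.11, but the estimates ran from -0.72 to 0.56. There 1 gene was apart and higher and 1 apart and lower than isotype. Without the PYHIN genes the median of the longer list for anti-PD1 against isotype was -0.10, and with them -0.25. Among the 50 tested genes without them, 13 were apart and lower and 6 apart and higher (18.2% and 19.2% of all tested genes). Of these 50, 5 lower and 2 higher genes had an unadjusted p under 0.05 with edgeR (8.12% of all tested genes in both directions).

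**Figure D5:**
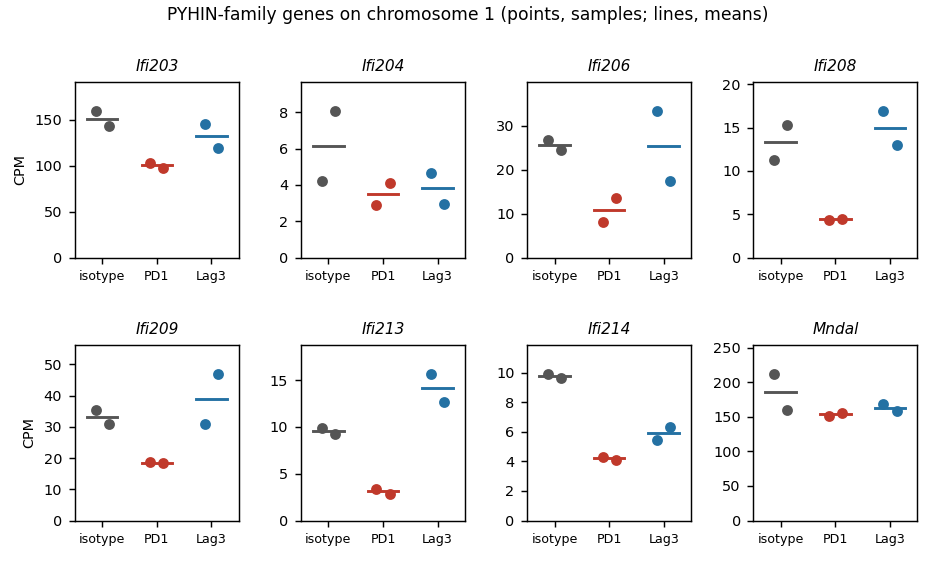
CPM of 8 PYHIN-family genes in each sample (points) with the mean of each group (lines; each vertical axis starts at 0). In every panel both anti-PD1 points lie below both isotype points, as *Ifi213* shows with 3.35 and 2.86 CPM against 9.90 and 9.26.

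Other cell types express many of these genes, and their markers were therefore summed in each sample. Summed CPM of 9 B cell markers was 122 and 138 in isotype, 65.2 and 56.4 in anti-PD1, and 83.9 and 124 in anti-Lag3, with *Cd79a* at 0 in every sample. For 11 macrophage and monocyte markers the sums were 214 and 182 in isotype, 131 and 163 in anti-PD1, and 174 and 148 in anti-Lag3. NK and CD8 T cell markers summed to 56.1 and 48.3 CPM in isotype, 34.98 and 29.85 in anti-PD1, and 33.7 and 32.7 in anti-Lag3, and neutrophil markers to 8.01 and 19.7, 6.71 and 6.54, and 4.22 and 4.09 CPM, with *Ly6g* at 0 in every sample. Plasmacytoid dendritic cell markers summed to 17.4 and 26.2 CPM in isotype, 15.3 and 10.6 in anti-PD1, and 11.4 and 18.2 in anti-Lag3, with the defining *Siglech*, *Cox6a2* and *Klk1* at 0 in every sample. Conventional dendritic cell markers summed to 1.89 and 0.81 CPM in isotype, 0 and 0.41 in anti-PD1, and 1.27 and 1.49 in anti-Lag3, with *Clec9a*, *Zbtb46* and *Cd209a* at 0. Erythroid markers ran from 18.7 to 50.5 CPM, and the groups overlapped. All of these sums except the erythroid one were lower in both anti-PD1 samples than in both isotype samples, as were *Rtp4* and the PYHIN genes. Taken singly, 4 of 7 tested B cell markers and 5 of 11 macrophage and monocyte markers were apart and lower. So were 1 of 3 plasmacytoid dendritic cell, 0 of 2 neutrophil and 2 of 2 NK and CD8 T cell markers. Of all tested genes 18.2% were, and 1 macrophage marker was apart and higher. The conventional dendritic cell and neutrophil sums rest on few reads, and no marker of the former was tested. The macrophage, neutrophil and NK and CD8 T cell sums were also lower in both anti-Lag3 samples than in isotype. The part of these other cell types in the results was not tested. In anti-Lag3 sample 1, where the interferon-stimulated genes were highest, the T cell sum was 2278 CPM, against 2061 to 2155 in the other samples. None of the sums of the other cell types was the highest there. Those of neutrophils and conventional dendritic cells were only 4.22 and 1.27 CPM in that sample. The cause of its level was not tested. The mRNA of the reporter gene *Nr4a3* and of both targets *Pdcd1* and *Lag3* passed in no comparison (*Nr4a3* -0.70, SE 0.23, adjusted p = 0.195 for anti-PD1 against isotype).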

How the data were processed

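3′ mRNA libraries (QuantSeq forward) were made from 6 sorted samples. The authors trimmed reads, aligned them with STAR 2.5.2a to GRCm38 and counted them per Ensembl gene with HTSeq, and the deposited values are raw counts. The annotation release and strand setting of the counting are not given in the sources used here, so antisense and overlapping genes cannot be told apart. A deposited table of rlog values was not used. Genes with at least 10 reads over the 6 samples were kept and all samples were fitted together with edgeR 4.0.16 (TMM scaling, legacy quasi-likelihood test), in R 4.3.3. CPM used TMM-scaled library sizes, and log2 CPM a prior count of 2. Benjamini-Hochberg adjustment ran over all tested genes. Intervals are 95% intervals of the quasi-likelihood fit. GENCODE annotation of GRCm38 named 47224 of 47643 identifiers. The 2 samples of a group were not duplicates, with a chi-square over genes of 2.65 to 3.29 for each degree of freedom. An exact permutation test with 2 samples against 2 cannot go below 0.333 and was not used. DESeq2 1.42.0, limma-voom (limma 3.58.1), other scalings and filters, the samples of a comparison alone, each sample left out and the replicate number as a block were alternatives. The members, lists and tests were chosen with earlier results of these data known. Values are given for the 10 genes with the smallest p for anti-PD1 against isotype, the 5 smallest in each other comparison, the 5 most abundant, and the measured pathway genes, 1 of which is not reported here. Figures were drawn with matplotlib 3.10.9.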

Additional observations from a re-analysis of the deposited data

How the results depend on the processing

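None of the 41 interferon-stimulated genes passed in any comparison under any of the alternatives, the smallest adjusted p being 0.0721 (anti-PD1 against isotype without anti-Lag3 replicate 2). The median of the 41 genes for anti-PD1 against isotype ran from -0.03 to 0.15 with each replicate left out. That for anti-Lag3 against isotype ran from -0.06 to 0.21 with each replicate left out (0.21 without anti-Lag3 replicate 2), and for anti-PD1 against anti-Lag3 it ran from -0.21 to 0.09 with each replicate left out. Of the values of single genes, 320 kept their direction and side of the threshold, 15 lost a call and 1 turned: *Gbp5* for anti-PD1 against isotype, which ran from -0.03 (without anti-PD1 replicate 2) to 0.52. The lost calls were all of *Jak2*, *Ifi203* or *Ifi213*, since the other genes had no call to lose. Leaving out a sample of the third group hardly moved an estimate, so the larger count is no measure of stability. Counts of pathway genes passing between anti-PD1 and isotype, 1 in the report, were 3 with every gene of at least 1 read, 4 with the 4 samples of the comparison alone, 2 with the replicate block and 1 to 4 with each replicate left out. Those between anti-PD1 and anti-Lag3 were 0 to 1 with each replicate left out. Of the longer interferon-responsive list, the count between anti-PD1 and isotype, 1 in the report, was 0 with DESeq2, 2 with limma-voom, 2 with upper quartile scaling, 3 with every gene of at least 1 read, 3 with the 4 samples alone, 2 with the replicate block and 0 to 3 with each replicate left out. Between anti-PD1 and anti-Lag3 it was 0 with DESeq2, limma-voom or filterByExpr, 3 with every gene of at least 1 read, and 0 to 1 with each replicate left out, where DESeq2 gave *Ifi213* no adjusted p. Calls over all tested genes between anti-PD1 and isotype, 107 in the report, also rose in some of these settings. They were 149 with every gene of at least 1 read, 175 with the 4 samples alone and 144 with the replicate block. The cause of these changes was not tested. Samples with the same replicate number showed little shared deviation (correlations 0.0356, 0.033 and -0.0553 over 7138 genes), and the sources used here do not say whether the numbers mark shared sorts, although the methods describe an excluded batch of samples sorted together. Depth limits the 15 genes under 20 CPM, 5 of which the filterByExpr filter removed.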
